A study of Mus musculus with 8 samples.

Results

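The genes described here are 43 mouse genes of homologous recombination, the Fanconi pathway, the damage and replication checkpoint, and mismatch repair. They were taken by symbol, for the known function of their products, with earlier results of these data known. The rule itself uses no measured value. All 43 were listed among the 23361 gene symbols of the expression table, and all 43 were among the 10467 genes tested. The table gives FPKM, which scales the fragments of a gene to the length of its transcript and to all mapped fragments of the library, and so allows levels to be compared between genes.

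RNA was sequenced from induced regulatory T cells (iTreg) that had been divided by surface Nrp-1, a co-receptor for semaphorins and growth factors, giving 4 libraries of Nrp-1+ cells and 4 of Nrp-1- cells. Both groups came from wild-type Foxp3-RFP reporter mice, in which a red fluorescent protein marks cells that express Foxp3, and the methods give an age of 7 to 8 weeks. Naive CD4+ T cells (CD44low CD62Lhigh) were activated with beads carrying anti-CD3 and anti-CD28, in IL-2 at 50 U/ml and TGF-β at 2 ng/ml, and viable CD4+ Foxp3-RFP+ cells were then sorted by Nrp-1. Culture lasted 3 days by the treatment protocol of the labels, and the methods also give day 3 for the sort, while another label field reads day 5. No gene was deleted in either group, so Nrp-1- iTreg are cells sorted as low for the surface protein and not cells that lack the gene. The labels call the 4 libraries of a group biological replicates without naming separate animals or cultures, so the p-values measure the spread between these libraries. The libraries are bulk RNA, in which more cells that carry a transcript and more transcript per cell cannot be told apart.

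Homologous recombination repairs a broken DNA duplex by copying an intact sister sequence. Broken ends are first cut back to single strands, and with the help of BRCA1, PALB2 and BRCA2 these strands are then made ready to invade the matching duplex. The Fanconi pathway uncouples DNA strands that have been crosslinked to each other, the checkpoint kinases hold the cell cycle while replication forks are stalled or DNA is broken, and mismatch repair removes bases that were mispaired during replication. T cells divide quickly after activation, and many of these genes are known to be transcribed mostly around S phase.

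The libraries carried the labelled difference: Nrp1 lay between 20.4 to 22.0 FPKM in Nrp-1+ iTreg and between 4.70 to 5.31 FPKM in Nrp-1- iTreg. Foxp3 lay between 112 to 120.5 and 107 to 109.9 FPKM, and the summed FPKM of 6 markers of CD4+ and regulatory T cells was 1478 to 1510 in Nrp-1+ iTreg and 1509 to 1581 in Nrp-1- iTreg. Within that sum Il2ra was higher in Nrp-1+ iTreg (259 to 271 against 223 to 231 FPKM), and Ctla4 (139.8 to 147 against 156 to 162 FPKM) and Cd3d (429 to 448 against 465 to 515 FPKM) were lower, without overlap. Relative depth, read from the steps between low FPKM values, had medians of 1.00 and 1.01 and ranged from 0.811 to 1.24. Of markers of other cells, Ms4a1 and Pax5 of B cells and S100a8, S100a9 and Camp of neutrophils were listed at 0 in all 8 libraries, and the 7 macrophage and monocyte markers, the 5 dendritic cell markers and the 4 NK cell markers were each under 1 FPKM. The 6 B cell markers summed to 5.21 to 5.91 and 4.01 to 5.82 FPKM. The 4 erythroid markers in the table summed to 5.49 to 7.57 FPKM in Nrp-1+ iTreg and 2.05 to 3.32 FPKM in Nrp-1- iTreg, nearly all of it Hba-a1. The CD8 markers summed to 7.10 to 8.78 and 9.33 to 11.3 FPKM, with Cd8a under 1 FPKM. The part of the erythroid and CD8 markers in the results that follow was not tested.

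Most of the 43 genes were higher in Nrp-1+ iTreg. By limma on log2(FPKM + 1) with Benjamini-Hochberg adjustment over all genes tested, 37 members were higher at an adjusted p under 0.05, against a background of 20.9% of all genes tested, 0 were lower, against 20%, and 6 passed in neither direction. In either direction, 40.9% of all genes tested passed. Among the 6 were 2 members with an unadjusted p under 0.05, Fance and Fancf, and by the exact Mann-Whitney test without adjustment 1 member, Fance, was lower and 38 were higher, Atrip among them. The levels of the groups did not overlap for 38 members that were higher and for 1, Fance, that was lower. For all genes tested these shares were 20.2% and 19.3%. The median change of the members was 0.61 on the log2 scale and that of all genes tested was -0.016. An increase of at least 0.5 that passed the test was seen in 26 members, compared with 5.34% of all genes tested.

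The changes were moderate in size. The ratio of mean FPKM between the groups ran from 0.898 for Fance to 2.10 for Rad54l. It was at least 2 for 7 members, between 1.5 and 2 for 20, and below 1.5 for 16. Levels were low to moderate: the mean over the 8 libraries ran from 2.03 FPKM (Palb2) to 53.7 FPKM (Tipin), with a median of 8.28 FPKM against 14.6 FPKM over all genes tested. Summed over the 43 genes, FPKM lay between 528.9 and 553.3 in Nrp-1+ iTreg and between 357.8 and 361.4 in Nrp-1- iTreg. The median coefficient of variation within a group was 5.46%, which is small beside most of the differences. No library was the highest of its group for more than 15 of the 43 genes, while Nrp-1+ iTreg replicate 4 was the lowest of its group for 17 and Nrp-1- iTreg replicate 2 for 15.

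**Figure D1:**
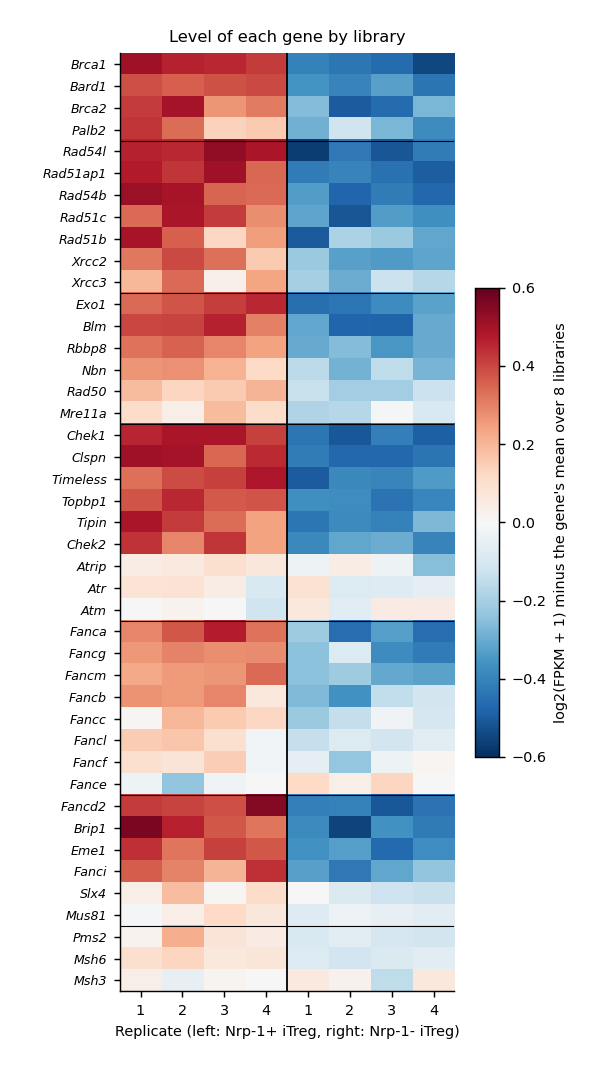
Level of each of the 43 genes (rows, in role groups separated by lines) in each library (columns, replicates 1 to 4 of Nrp-1+ iTreg on the left and of Nrp-1- iTreg on the right). Colour gives log2(FPKM + 1) minus the mean of that gene over the 8 libraries, red above and blue below; most rows are red on the left and blue on the right, and the rows of Atm, Atr, Fance and Msh3 are not.

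Because most members were higher in the same group, promoters are shown for the 3 largest increases that have an entry in the RefSeq promoter table (GRCm38.p6). The table held 35 of the 43 genes. The stretches below are the 150 bases before the annotated start, 5′ to 3′ on the strand of the gene, of Rad54l (chr4:116123691-116123840, minus strand), Brca1 (chr11:101551956-101552105, minus strand) and Chek1 (chr9:36726659-36726808, minus strand), with capitals for CCAAT boxes, a binding motif of the factor NF-Y.
Rad54l: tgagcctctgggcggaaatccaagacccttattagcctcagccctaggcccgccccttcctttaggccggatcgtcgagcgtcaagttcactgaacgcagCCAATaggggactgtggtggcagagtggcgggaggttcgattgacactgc
Brca1: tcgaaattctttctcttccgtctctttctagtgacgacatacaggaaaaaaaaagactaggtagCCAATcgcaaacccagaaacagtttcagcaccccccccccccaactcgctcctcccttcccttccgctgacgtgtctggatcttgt
Chek1: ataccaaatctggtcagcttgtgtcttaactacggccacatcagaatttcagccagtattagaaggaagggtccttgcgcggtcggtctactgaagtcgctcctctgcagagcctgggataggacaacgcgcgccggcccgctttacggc
The CCAAT letters lay 50 to 46 bases before the start in Rad54l and 86 to 82 bases before it in Brca1, and the stretch of Chek1 held none. In the GENCODE M21 annotation Chek1 reaches to base 36727065, so its stretch lies inside the gene by that source.

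Windows of 300 bases, from 250 before to 50 after the start, were searched on both strands for 3 motifs known from cell cycle genes, and overlapping matches of the same motif were counted as 1. The E2F-type motif (TTCGCGC or TTGGCGC or TTCCCGC), the binding motif of E2F factors, was present in 19 of 35 members, or 54.3%. Over the 27025 genes of the table the share was 9.20%, and over the 7700 of them tested here it was 18.0%. A gene with more than 1 window was counted once. The E2F-type letters are rich in G and C, and these shares were not matched for base composition. The CCAAT box (CCAAT) was present in 22 of 35 members (62.9%) against 41.1% of all these genes and 43.6% of those tested. The CHR element of cell cycle genes (TTTGAA or TTCGAA) was present in 4 of 35 (11.4%) against 21.7% and 16.2%. The E2F-type motif stood in 13 of the 20 members that rose by at least 0.5 on the log2 scale and in 6 of the 15 others, among them 3 of the 6 members that did not pass the test. The CCAAT box stood in 11 of those 20 members (55.0%) and in 11 of the 15 others (73.3%), and the CHR element in 3 of 20 and 1 of 15. Differences between these shares rest on a few genes each and were not tested. These letter matches are a description of the windows, and no binding was measured.

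To show how alike these sites look in members that rose and in members that did not, the motif is given in capitals with the bases on either side that lie within the searched window, on the strand of the gene, so that matches on the other strand read reversed and complemented. Of the members that rose, each role group is shown by the member with the largest change among those with a match. A single site is shown per gene, and further members that rose also held a match. Those shown are Brca1 (chr11:101551918-101551944), Rad51ap1 (chr6:126939559-126939585), Chek1 (chr9:36726609-36726625), Fancg (chr4:43010336-43010362), Brip1 (chr11:86201181-86201207) and, by a small margin, Pms2 (chr5:143910001-143910027, plus strand, the others being on the minus strand). Atm (chr9:53536640-53536666), Fancf (chr7:51862372-51862398) and Msh3 (chr13:92355185-92355214), all on the minus strand, did not pass the test.
Brca1: ctagcgctagGCGCCAAgcggccggtt
Rad51ap1: ctggttttcgGCGGGAAttgaaaccgc
Chek1: gcaggttttgGCGGGAA
Fancg: tcttttcagtTTCCCGCggaaccgtct
Brip1: ggggcgggagGCGCGAAttcatctgtg
Pms2: gagagcggcaGCGCCAActctcccgcg
Atm: agagccggaaGCGGGAAggcgtgcgta
Fancf: ttcattttcaGCGCCAAtgtgccccgg
Msh3: gccgtcaagtTTGGCGCGAAatcgcagccc
In Msh3 a pair of matches overlap, which makes the run in capitals longer.

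The BRCA1, PALB2 and BRCA2 group of mediators were all higher in Nrp-1+ iTreg, with 4 of 4 past the test and a median change of 0.76 on the log2 scale. Brca1, the ubiquitin ligase that starts recombination at broken ends, was at 14.5, 14.0, 13.9 and 13.6 FPKM in Nrp-1+ iTreg replicates 1 to 4 and at 7.23, 7.07, 6.91 and 6.47 FPKM in Nrp-1- iTreg. Every Nrp-1+ library was above every Nrp-1- library by a wide margin. The mean rose 2.02-fold, with a log2 change of 0.92 ± 0.037 (SE) and a limma adjusted p of 6.24e-07. Brca2, whose product acts on single-stranded DNA in recombination, was at a lower level, 4.45, 4.76, 3.90 and 4.05 FPKM against 2.40, 1.88, 1.96 and 2.37 FPKM. The Brca2 groups were again separate, although the libraries of Nrp-1- iTreg spread more in relation to their mean. Its mean rose 1.99-fold (log2 change 0.75 ± 0.079 SE, limma adjusted p = 0.000158). Bard1, the binding partner of BRCA1, rose 1.87-fold to 7.26 ± 0.0925 FPKM (SD, n = 4). Palb2, which bridges BRCA1 and BRCA2, rose 1.75-fold to 2.58 ± 0.352 FPKM and had the lowest mean level of the 43 genes.

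The factors of strand invasion rose in 7 of 7 cases, with a median change of 0.77 and a range from 0.40 (Xrcc3) to 0.97 (Rad54l) on the log2 scale. Rad54l encodes a translocase that helps a broken strand to invade the homologous duplex. It was at 13.2, 13.1, 13.9 and 13.4 FPKM in Nrp-1+ iTreg and at 5.93, 6.64, 6.22 and 6.69 FPKM in Nrp-1- iTreg. The lowest Nrp-1+ library was nearly at double the highest Nrp-1- library, and this was the largest increase on the log2 scale of any member (0.97 ± 0.041 SE, limma adjusted p = 8.11e-07). Rad51ap1, whose product stimulates strand invasion, stood at 33.5, 32.4, 34.3 and 30.5 FPKM against 17.6, 17.8, 17.2 and 16.6 FPKM. It was the most abundant member of this group and rose 1.89-fold with no overlap (log2 change 0.88 ± 0.039 SE, limma adjusted p = 1.10e-06). Rad54b, a relative of Rad54l, rose 2.05-fold, from 3.30 ± 0.201 to 6.78 ± 0.509 FPKM (SD, n = 4 per group).

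Rad51b, Rad51c, Xrcc2 and Xrcc3 encode related proteins that form small complexes in recombination, and all 4 were at low levels. Rad51c, which is shared by both complexes, was at 3.95, 4.50, 4.24 and 3.74 FPKM in Nrp-1+ iTreg and 2.14, 1.74, 2.10 and 2.03 FPKM in Nrp-1- iTreg. The groups were well apart, at 2.05-fold (log2 change 0.77 ± 0.066 SE, limma adjusted p = 4.91e-05). Xrcc3, its partner in the smaller complex, was at 3.69, 4.18, 3.18 and 3.82 FPKM against 2.56, 2.33, 2.74 and 2.63 FPKM. Xrcc3 rose less, by 1.45-fold (log2 change 0.40 ± 0.073 SE, limma adjusted p = 0.00293), and its groups also did not overlap. Rad51b and Xrcc2, members of the larger complex, rose 1.83-fold and 1.70-fold, with log2 changes of 0.62 ± 0.099 and 0.60 ± 0.059 (SE).

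**Figure D2:**
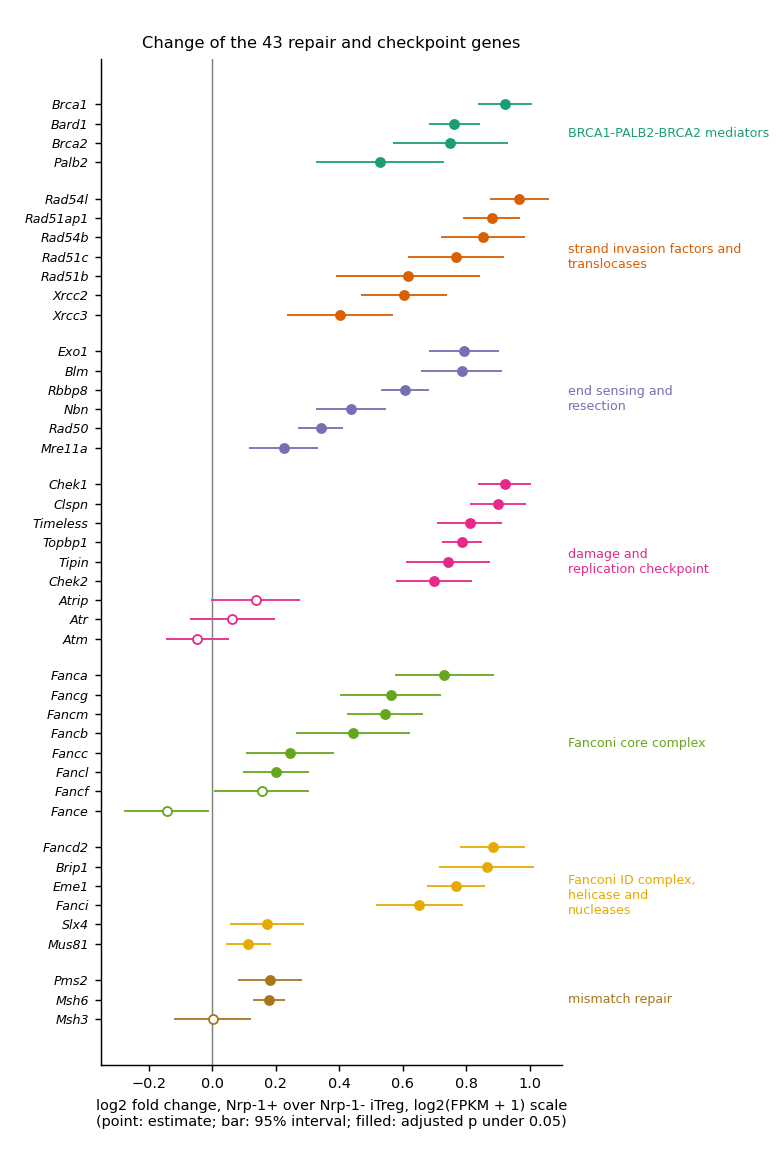
Log2 fold change of each member on the log2(FPKM + 1) scale (x axis, Nrp-1+ over Nrp-1- iTreg), by role group (colours and labels on the right). Points are limma estimates, bars are 95% intervals, and filled points passed an adjusted p under 0.05; the 6 open points are Atm, Atr, Atrip, Fance, Fancf and Msh3.

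End sensing and resection showed a graded pattern, with 6 of 6 members higher and a median change of 0.52. Exo1, the exonuclease that cuts ends back over long stretches and also acts in mismatch repair, was at 4.26, 4.40, 4.53 and 4.69 FPKM in Nrp-1+ iTreg and 2.04, 2.08, 2.20 and 2.33 FPKM in Nrp-1- iTreg. The lowest Nrp-1+ library was above the highest Nrp-1- library by a wide gap, and the mean rose 2.07-fold (log2 change 0.79 ± 0.048 SE, limma adjusted p = 6.20e-06). Blm, the helicase that unwinds DNA in resection and dissolves joined duplexes, rose 1.85-fold to 10.3 ± 0.521 FPKM, and Rbbp8 (CtIP), which starts resection, rose 1.59-fold to 12.7 ± 0.445 FPKM. The MRN complex, which senses broken ends, changed less. Mre11a, its nuclease, was at 17.1, 16.2, 18.1 and 17.1 FPKM against 13.8, 13.9, 15.7 and 14.7 FPKM. Those groups were separate by a narrow gap, with a ratio of 1.18 (log2 change 0.22 ± 0.047 SE, limma adjusted p = 0.00615). Rad50 and Nbn, the other subunits, rose 1.29-fold and 1.39-fold.

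In the checkpoint group 6 of 9 members were higher, with a median change of 0.74, and Atm, Atr and Atrip did not pass the test. Chek1, the kinase that stalls the cell cycle when replication forks stop, was at 9.11, 9.34, 9.36 and 8.80 FPKM in Nrp-1+ iTreg and 4.46, 4.18, 4.56 and 4.26 FPKM in Nrp-1- iTreg. Every Nrp-1+ library was at close to double the level of every Nrp-1- library, a 2.10-fold rise (log2 change 0.92 ± 0.036 SE, limma adjusted p = 5.75e-07). Clspn, the adaptor through which ATR activates CHK1, was at 27.8, 27.7, 24.8 and 26.7 FPKM against 14.2, 13.7, 13.7 and 14.0 FPKM. Its groups were far apart, at 1.93-fold (log2 change 0.90 ± 0.038 SE, limma adjusted p = 8.72e-07). Topbp1, the activator of ATR, rose 1.75-fold to 45.0 ± 1.26 FPKM and had the smallest adjusted p of the 43 genes (limma, 3.66e-07). Timeless and Tipin, which together protect the replication fork, rose 1.84-fold to 16.2 ± 0.763 FPKM and 1.69-fold to 67.5 ± 5.06 FPKM. Chek2, the effector kinase of ATM, rose 1.71-fold to 12.5 ± 0.904 FPKM.

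Among the members that did not pass the test, Atm, the kinase activated by broken ends, was at 8.36, 8.53, 8.41 and 7.65 FPKM in Nrp-1+ iTreg and 8.80, 7.98, 8.70 and 8.70 FPKM in Nrp-1- iTreg. Atr, the kinase activated by single-stranded DNA, was at 5.02, 5.04, 4.87 and 4.34 FPKM against 5.06, 4.37, 4.39 and 4.47 FPKM. For both genes the groups overlapped. The log2 change was -0.047 for Atm, with a 95% interval of -0.15 to 0.052 (limma adjusted p = 0.415), and 0.063 for Atr, with an interval of -0.071 to 0.20 (limma adjusted p = 0.422). Both small changes moved with single libraries: that of Atm was -0.016 without Nrp-1+ iTreg replicate 4 and -0.076 without Nrp-1- iTreg replicate 2, and that of Atr was 0.10 without either of Nrp-1+ iTreg replicate 4 and Nrp-1- iTreg replicate 1. Atrip, the partner that brings ATR to single-stranded DNA, was at 9.48, 9.58, 9.86 and 9.64 FPKM against 8.95, 9.46, 8.94 and 7.49 FPKM. Its groups were just apart, with a log2 change of 0.14 and an interval of -0.0039 to 0.28 (limma adjusted p = 0.110). It was 0.073 without Nrp-1- iTreg replicate 4, and by the exact Mann-Whitney test without adjustment Atrip was higher (p = 0.0286).

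**Figure D3:**
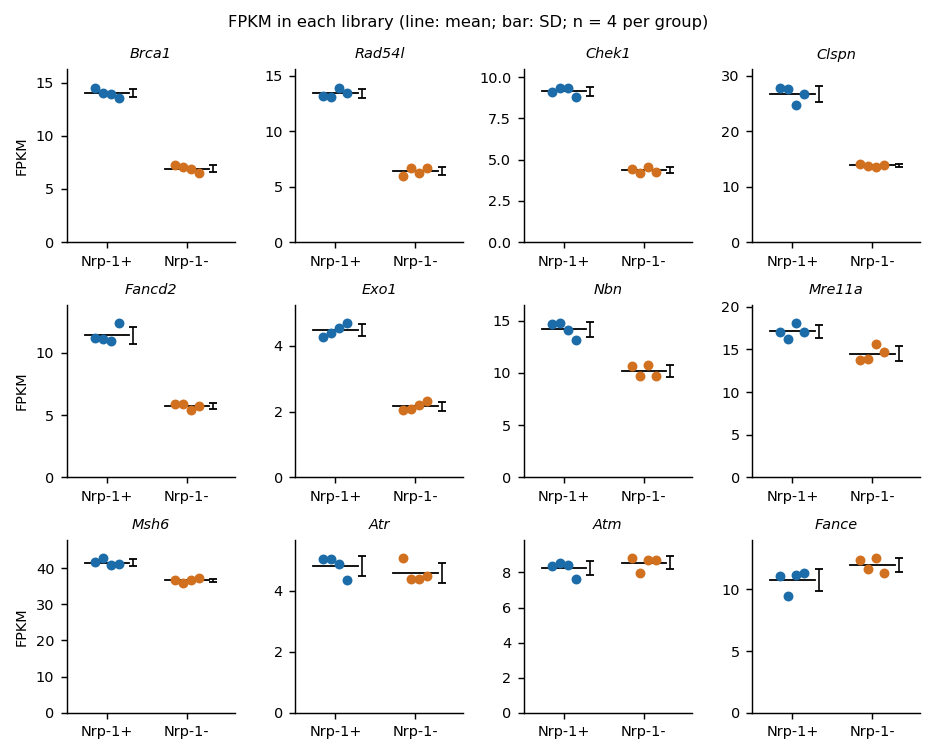
FPKM (y axis, from 0) of 12 members in each library of Nrp-1+ iTreg (blue) and Nrp-1- iTreg (orange), with the mean as a line and the SD as a bar (n = 4 per group). The groups are far apart for Brca1, Rad54l, Chek1, Clspn, Fancd2 and Exo1, closer for Nbn, Mre11a and Msh6, and overlap for Atr and Atm, while Fance is slightly lower in Nrp-1+ iTreg.

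The Fanconi core complex, a multi-subunit ubiquitin ligase, was mixed: 6 of 8 members were higher and 2 did not pass the test, with a median change of 0.34. Fanca, a scaffold subunit, was at 5.04, 5.37, 5.83 and 5.17 FPKM in Nrp-1+ iTreg and 3.25, 2.58, 2.91 and 2.58 FPKM in Nrp-1- iTreg. The groups were separate, and the mean rose 1.89-fold (log2 change 0.73 ± 0.068 SE, limma adjusted p = 7.81e-05). Fancm, the translocase that anchors the complex to DNA, rose 1.75-fold to 2.78 ± 0.123 FPKM, Fancg rose 1.53-fold to 11.0 ± 0.135 FPKM, and Fancb rose 1.55-fold to 2.89 ± 0.275 FPKM. Fancl, the subunit with the ubiquitin ligase activity, rose 1.17-fold and Fancc rose 1.24-fold, with log2 changes of 0.20 ± 0.045 and 0.24 ± 0.060 (SE). When transcript length and GC were corrected for and a replicate block was added, Fancl and Fancc no longer passed (limma adjusted p = 0.0513 and 0.0511).

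Fance, which links the core complex to FANCD2, was the member furthest in the other direction. It was at 11.0, 9.46, 11.1 and 11.3 FPKM in Nrp-1+ iTreg and 12.4, 11.6, 12.5 and 11.3 FPKM in Nrp-1- iTreg. The groups came to within rounding of each other without overlapping, and the log2 change was -0.14 with an interval of -0.28 to -0.011 (limma adjusted p = 0.0799). Without Nrp-1+ iTreg replicate 2 the change of Fance was -0.090. Fancf, an adaptor of the core complex, was at 3.67, 3.62, 3.85 and 3.33 FPKM against 3.20, 2.72, 3.27 and 3.41 FPKM. Those groups overlapped by 1 library, and the log2 change of 0.15 had an interval of 0.0062 to 0.30 (limma adjusted p = 0.0893). Without Nrp-1- iTreg replicate 2 it was 0.10.

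Downstream of the core complex, 6 of 6 members were higher, with a median change of 0.71. Fancd2, which is ubiquitinated by the core complex and clamps onto DNA, was at 11.2, 11.1, 10.9 and 12.4 FPKM in Nrp-1+ iTreg and 5.88, 5.89, 5.42 and 5.72 FPKM in Nrp-1- iTreg. Each Nrp-1+ library was near double the Nrp-1- level, with a ratio of means of 1.99 (log2 change 0.88 ± 0.045 SE, limma adjusted p = 2.26e-06). Brip1, a helicase that binds BRCA1, was at 9.26, 8.59, 7.97 and 7.67 FPKM against 4.31, 3.71, 4.39 and 4.17 FPKM. Its groups did not overlap, and the mean rose 2.02-fold (log2 change 0.86 ± 0.065 SE, limma adjusted p = 2.17e-05). Fanci, the partner of FANCD2 in the clamp, rose 1.66-fold to 10.3 ± 0.782 FPKM. Eme1, the partner subunit of the MUS81 nuclease, rose 1.80-fold to 12.5 ± 0.473 FPKM.

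The other nuclease genes rose little. Mus81, the catalytic subunit that pairs with EME1, was at 15.6, 16.1, 17.1 and 16.5 FPKM against 14.8, 15.3, 15.1 and 14.9 FPKM, and Slx4, the scaffold on which repair nucleases assemble, was at 6.20, 6.97, 6.03 and 6.55 FPKM against 6.01, 5.59, 5.41 and 5.38 FPKM. Both were separate by a small gap. Mus81 had a log2 change of 0.11 ± 0.031 (SE, limma adjusted p = 0.0201) and Slx4 one of 0.17 ± 0.051 (SE, limma adjusted p = 0.0266). Neither call was stable. Without Nrp-1- iTreg replicate 1 or replicate 4 the limma adjusted p of Mus81 was 0.0515 or 0.0508, and without any 1 of Nrp-1+ iTreg replicates 2 and 4 and Nrp-1- iTreg replicates 2, 3 and 4 that of Slx4 was between 0.0570 and 0.0689.

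Mismatch repair had the smallest median change of the 7 role groups, 0.18, with 2 of 3 members higher. Msh6, whose product recognises single mispaired bases, was at 41.7, 42.7, 40.7 and 41.0 FPKM in Nrp-1+ iTreg and 36.7, 35.9, 36.6 and 37.1 FPKM in Nrp-1- iTreg. The groups were separate with little spread, and the log2 change was 0.18 ± 0.022 (SE, limma adjusted p = 0.000371). Pms2, whose product nicks the strand to be repaired, was at 9.93, 11.5, 10.4 and 10.1 FPKM against 9.10, 9.32, 9.06 and 8.97 FPKM. Its groups were apart, by a log2 change of 0.18 ± 0.044 (SE, limma adjusted p = 0.0113). Msh3, whose product recognises larger loops, was at 7.34, 6.85, 7.22 and 7.12 FPKM against 7.46, 7.27, 6.32 and 7.50 FPKM. The Msh3 groups overlapped, with a log2 change of 0.00060 and a 95% interval of -0.12 to 0.12 (limma adjusted p = 0.995). With a replicate block and the GC and length correction together, neither Msh6 nor Pms2 passed (limma adjusted p = 0.0752 and 0.0737).

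Ratios between genes whose products work together were compared within each library, which sets the change of partners directly beside each other. The 17 pairs were chosen after the values had been seen, and their ratios rest on the same values as the changes given above. Chek1 was at 1.81, 1.85, 1.92 and 2.03 times the FPKM of Atr in Nrp-1+ iTreg and at 0.881, 0.957, 1.04 and 0.953 times in Nrp-1- iTreg. These ratios did not overlap, at 1.90 ± 0.0942 against 0.957 ± 0.0643 (SD, n = 4). The ratio of Chek2 to Atm was 1.52 ± 0.0861 against 0.857 ± 0.0657, that of Topbp1 to Atr was 9.36 ± 0.623 against 5.62 ± 0.338, and that of Eme1 to Mus81 was 0.767 ± 0.0456 against 0.462 ± 0.0218. Ratios of Rad51c to Xrcc3 (0.979 to 1.33 against 0.749 to 0.835) and of Rbbp8 to Mre11a (0.698 to 0.813 against 0.493 to 0.596) were also higher in each Nrp-1+ library. Xrcc2 to Rad51c (1.19 to 1.29 against 1.36 to 1.66) and Fanci to Fancd2 (0.860 to 0.944 against 0.967 to 1.17) were lower in each. With a pseudocount of 1 the log2 difference of Xrcc2 to Rad51c, both at low levels, was -0.16 in place of -0.28.

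These 8 pairs did not overlap, and each had an exact two-sided permutation p of 0.0286, the smallest that 4 libraries against 4 allow. After Benjamini-Hochberg adjustment over the 17 pairs this p was 0.0607, so 0 pairs passed 0.05. Because all 8 pairs share the smallest possible p, the adjusted value depends on how many pairs do not overlap. It does not depend on the size of the differences, so it cannot weigh a single pair. The other 9 pairs overlapped. Brca1 to Bard1 was at 1.93 ± 0.0619 against 1.79 ± 0.0717, Atr to Atrip at 0.500 ± 0.0372 against 0.528 ± 0.0626, and Timeless to Tipin at 0.242 ± 0.0297 against 0.221 ± 0.00653 (SD, n = 4). The log2 difference of Atr to Atrip (-0.075) was -0.026 without Nrp-1+ iTreg replicate 4 and -0.041, -0.14 and -0.015 without Nrp-1- iTreg replicates 1, 2 and 4. That of Timeless to Tipin (0.12) was 0.19 without Nrp-1+ iTreg replicate 1 and 0.049 without replicate 4. No background over other gene pairs was computed.

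**Figure D4:**
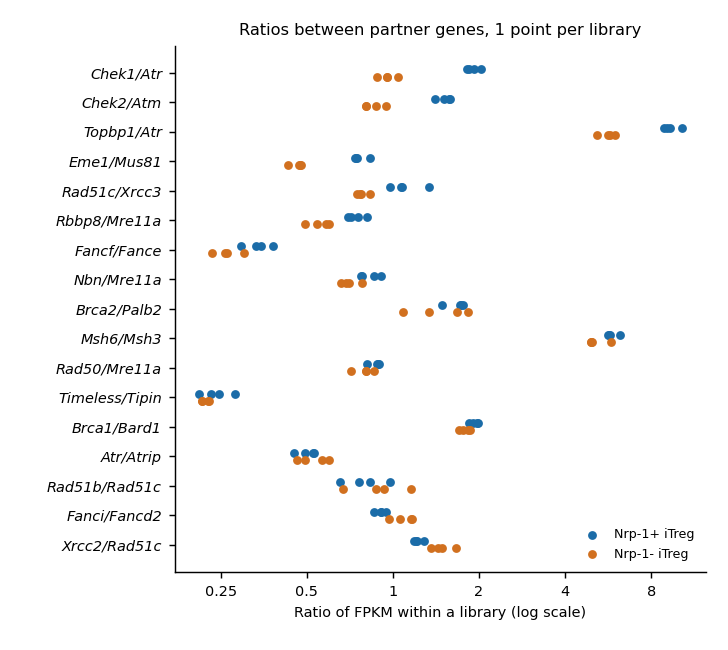
Ratio of FPKM between partner genes within each library (x axis, log scale), with 1 point per library for Nrp-1+ iTreg (blue) and Nrp-1- iTreg (orange), sorted by the difference between the groups. The 4 uppermost pairs (Chek1/Atr, Chek2/Atm, Topbp1/Atr, Eme1/Mus81) are higher in Nrp-1+ iTreg without overlap, and the lowest 2 (Fanci/Fancd2, Xrcc2/Rad51c) are lower without overlap.

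Further genes of the same pathways, which are not among the 43, gave a more mixed picture. Of 65 such genes tested, 35 were higher and 5 lower by the same test, with a median change of 0.17. Other recombination genes were higher in 14 of 25 cases and lower in 2 (median 0.18). Fignl1, whose product acts in recombination, had the largest log2 change of them (25.9 against 12.6 FPKM, log2 change 0.98), and Rad52 was among those that fell (17.8 against 19.8 FPKM, log2 change -0.14, limma adjusted p = 0.0143). Other Fanconi genes were higher in 5 of 14 cases and lower in 1 (median 0.076). Other checkpoint and break-response genes were higher in 12 of 21 cases and lower in 1 (median 0.30), and other mismatch repair genes were higher in 4 of 5 cases and lower in 1 (median 0.70). The largest of these mismatch repair changes were those of Lig1 (1.00), Pold1 (0.80) and Pcna (0.70), a ligase, a polymerase subunit and a clamp that also serve ordinary DNA replication, while Pms1 was at 0.27 and Mlh3 fell by 0.15 on the log2 scale.

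Lists of genes of other repair pathways had medians near 0, and differences between these lists were not tested. Of 44 tested, 10 were higher and 9 lower, beside background shares of 20.9% and 20%. Non-homologous end joining, which rejoins ends without a template, had 2 of 9 higher and 2 lower (median 0.025). Nucleotide excision repair, which removes bulky damage, had 1 of 17 higher and 5 lower (median -0.084). Base excision repair, which replaces single damaged bases, had 7 of 18 higher and 2 lower (median 0.014), with the largest log2 change for Neil3, at 26.1 against 13.6 FPKM.

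Genes of the cell cycle itself moved with the members. Of 21 genes of DNA replication, 21 were higher (median 0.84), and of 17 mitotic genes, 17 were higher (median 0.87), with log2 changes from 0.47 to 1.00 and from 0.73 to 0.96. Both medians lay above the member median of 0.61. Their part in the change of the 43 genes was not tested.

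**Figure D5:**
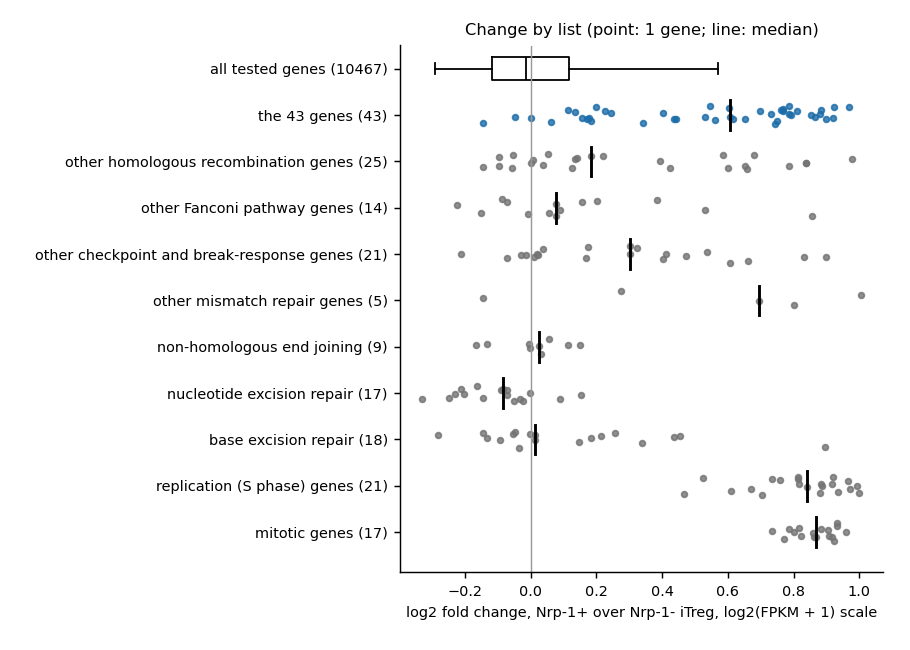
Log2 fold change on the log2(FPKM + 1) scale (x axis, Nrp-1+ over Nrp-1- iTreg) for the 43 genes (blue), for other lists of repair and cell cycle genes (grey, 1 point per gene, black line at the median, number of genes in brackets), and for all 10467 genes tested (box from the lower to the upper quartile, whiskers at the 5th and 95th percentiles). The 43 genes have a median of 0.61, the replication and mitotic lists lie to the right at 0.84 and 0.87, and the medians of the lists of other repair pathways lie near 0.

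Reads of neighbouring genes can enter some of these values. In the GENCODE M21 annotation 15 of the 43 genes share exonic bases with another gene of the table, and whether strand was used in counting is not given in the sources used here. The largest overlaps were Rad54b with Fsbp on the same strand (35.8% of exonic bases, Fsbp at 0.460 FPKM), Atrip with Trex1 on the same strand (16.0%), Fanci with Polg on the opposite strand (16.0%) and Rad54l with Lrrc41 on the opposite strand (15.4%). Of these neighbours, Trex1 had a log2 change of -0.0011, Polg one of -0.015 and Lrrc41 one of 0.015 (limma adjusted p = 0.987, 0.753 and 0.747).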

How the data were processed

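Expression was measured in 8 libraries, 4 per group. The authors ran the reads through CLC Genomics Workbench and Cufflinks and deposited FPKM, with a single value for each gene symbol in each library. The submitters' processing notes name GRCm38 and mm10, while aligner settings and annotation are not given in the sources used here. The labels and the methods name different library kits and give the IL-2 dose in different units. No further scaling was applied. Genes whose FPKM averaged 1 or more (10467 of 23361, with 7072 listed at 0 in all libraries) were tested on log2(FPKM + 1), a scale that understates the change of low genes, with limma 3.58.1 (eBayes with trend) in R 4.3.3 and Benjamini-Hochberg adjustment. FPKM is not a count and gives no read number, so precision rests on the replicates. Ratios were compared by exact permutation tests in Python 3.11.15 with scipy 1.17.1. Exon overlaps came from GENCODE M21 and promoters from RefSeq GRCm38.p6.

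The 43 members, the lists and the alternatives were chosen with earlier results of these data known, and a few genes of these pathways are not reported here. Values in all libraries are given for the member with the largest called change in each role group; those given for further members, and values of genes outside the 43, were selected after they had been seen. Alternatives were pseudocounts of 0.1 and 0.5, no filter, a filter at a mean FPKM of 5, quantile normalization, size factors, a block for the replicate number, no trend, array weights, a GC and length correction (splines with 5 degrees of freedom) with and without the block, the exact Mann-Whitney test, and each library left out. A pseudocount of 1 in the ratios and libraries left out of the ratios were added after the data had been seen.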

Additional observations from a re-analysis of the deposited data

Results flagged for a closer look

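Among 120 groups of 4 values (43 genes and 17 ratios in both groups), 9 held a library far from the other 3 by Dixon's test, where chance gives about 6. Atm was at 7.98 FPKM in Nrp-1- iTreg replicate 2 against 8.70 to 8.80 in the others, and Atr at 5.06 FPKM in Nrp-1- iTreg replicate 1 against 4.37 to 4.47. Topbp1 was at 46.8 FPKM in Nrp-1+ iTreg replicate 2 against 44.1 to 44.5, and Fance at 9.46 FPKM in the same library against 11.0 to 11.3. In Nrp-1+ iTreg the ratio of Brca2 to Palb2 was 1.49 in replicate 1 against 1.71 to 1.75, that of Rad50 to Mre11a was 0.815 in replicate 3 against 0.883 to 0.894, and that of Eme1 to Mus81 was 0.835 in replicate 1 against 0.737 to 0.750. In Nrp-1- iTreg replicate 3 the ratio of Eme1 to Mus81 was 0.429 against 0.470 to 0.476, and that of Msh6 to Msh3 was 5.79 against 4.92 to 4.95.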

How the results depend on the processing

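The count of members higher in Nrp-1+ iTreg ran from 26 (filter at a mean FPKM of 5, which leaves fewer members to test) to 38 (exact Mann-Whitney test, unadjusted), and from 35 to 37 with each library left out. The count of members lower was 0 in every limma setting, libraries left out included, and 1 (Fance) by the exact Mann-Whitney test. The median change of the members was 0.76 with a pseudocount of 0.1, where low genes are compressed less, and 0.59 to 0.63 with each library left out. Of the 43 members, 31 were called higher in every limma setting that tested them, and 7 changed side of the threshold or sign in at least 1: Slx4, Mus81, Fancc, Fancl, Msh6, Pms2 and Msh3. The change of Msh3 turned negative, at -0.027 with quantile normalization, -0.022 with the GC and length correction without and with the replicate block, -0.012 without Nrp-1+ iTreg replicate 1, -0.0046 without Nrp-1+ iTreg replicate 3, -0.049 without Nrp-1- iTreg replicate 3 (the 8 fits that leave out a library ran from -0.049 to 0.022) and -0.0017 as the log2 ratio of means beside the Mann-Whitney test, and it passed the test in none of these. Slx4 had an adjusted p of 0.0504 without the filter and 0.0687 with the GC and length correction, and Mus81 one of 0.0656 with quantile normalization and 0.153 with the correction. Among all genes, with the replicate block and the GC and length correction together, 1355 were higher and 1096 lower, in place of 2189 and 2093, and with each library left out 1965 to 2061 were higher and 1777 to 1916 lower. The cause was not tested.

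The replicate numbers were not found to pair the libraries. The correlations of deviations between libraries with the same number were -0.54, -0.020, 0.010 and -0.50 over all genes and -0.036, -0.065, -0.080 and -0.11 without 268 short RNA genes, and 0 of 4 Nrp-1+ libraries correlated best with the library of their own number. With the replicate block 36 members were higher, with the block and the GC and length correction 31, and Slx4 had an adjusted p of 0.0586 with the block. With a pseudocount of 1, the log2 ratio of Xrcc2 to Rad51c differed by -0.16 and that of Chek1 to Atr by 0.86 between the groups, in place of -0.28 and 0.99. With each library left out, these ran from -0.32 to -0.22 and from 0.95 to 1.03. Median-of-ratios size factors lay between 0.998 and 1.00 and moved the median of all genes by less than 0.1. The read number behind each FPKM is unknown, so low members such as Palb2, Fancm and Rad51b carry counting error that cannot be given here.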
